A study of Mus musculus with 6 samples.

Results

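The bile acid receptor FXR, the repressors SHP and MAFG that act below it, and the nuclear receptors that pair with FXR or share its genes were examined as a set of 8 named transcripts: Nr1h4 (FXR), Nr0b2 (SHP), Mafg, Rxra, Rxrb, Nr5a2 (LRH-1), Hnf4a and Nr1h3 (LXRα). They were chosen by name for their roles, with earlier results of these data known, and are 8 of the 23284 genes in the count tables. All 8 passed the filter on low counts and stand among the 12453 genes tested. The livers came from FXR-floxed male mice injected at 8 weeks of age, through the tail vein, with AAV8 (an adeno-associated virus that reaches the liver) carrying Cre recombinase under the hepatocyte promoter TBG. The same injection gave AAV8-TBG-FXR WT to the FXR-WT group (3 livers) or AAV8-TBG-Y67F-FXR, in which the tyrosine at position 67 of FXR is replaced by phenylalanine, to the Y67F-FXR group (3 livers). The study's methods describe its flag-FXR constructs as human FXR, without saying whether that holds for these viruses. All 6 mice thus shared the floxed allele, Cre and a transgene, and all were fed chow with 0.5% cholic acid (CA) for 6 h, at 4 weeks after injection. Since TBG acts in hepatocytes, the other cells of these livers keep an undeleted mouse FXR gene, and no liver without a transgene or without CA was analysed here.

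FXR is a nuclear receptor that binds bile acids and DNA, usually as a heterodimer with a retinoid X receptor. In liver it raises transcription of Nr0b2, whose product SHP lacks a DNA-binding domain and represses by docking on other receptors, LRH-1 and HNF4α among them. It also raises Mafg, which encodes a small MAF protein that binds DNA but has no activation domain. SHP and MAFG are both known to lower bile acid synthesis genes, while LRH-1 and HNF4α drive genes of this kind such as Cyp7a1 and Cyp8b1. LXRα, the oxysterol receptor, also pairs with RXR and turns on sterol efflux genes.

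The promoter windows of Nr0b2 and Mafg are printed because they had the lowest fitted fold changes of the members. Each is the 250 bases before the gene's RefSeq start, 5′ to 3′ on the gene's strand, in the GRCm38.p6 build: Nr0b2 at chr4:133553126-133553375 on the plus strand and Mafg at chr11:120633548-120633797 on the minus strand. Capitals mark TCAAGG, the core of LRH-1 sites.
Nr0b2: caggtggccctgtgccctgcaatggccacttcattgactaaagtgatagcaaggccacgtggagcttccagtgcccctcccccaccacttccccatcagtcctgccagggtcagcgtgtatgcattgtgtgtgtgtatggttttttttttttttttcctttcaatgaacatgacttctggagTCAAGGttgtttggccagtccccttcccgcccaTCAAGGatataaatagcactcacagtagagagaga
Mafg: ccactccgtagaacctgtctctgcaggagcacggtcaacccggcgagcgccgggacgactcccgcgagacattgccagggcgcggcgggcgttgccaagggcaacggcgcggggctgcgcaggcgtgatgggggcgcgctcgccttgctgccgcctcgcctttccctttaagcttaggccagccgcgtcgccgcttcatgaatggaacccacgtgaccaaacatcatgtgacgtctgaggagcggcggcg
Windows were searched on both strands for AGGTCA (the core of many nuclear receptor sites), for TCAAGG, for the MAF core TGCTGA and for AGGTCANTGACCT (the inverted repeat with a 1-base spacer that FXR and RXR bind, up to 2 mismatches). A TCAAGG that is followed by TCA overlaps a match to AGGTCA. The Nr0b2 window held TCAAGG at 2 places on the gene's strand, starting 68 and 35 bases before the start site, and none of the other motifs. No match to any of the 4 motifs was found in the Mafg window. Over 32817 RefSeq promoter windows of the same length, 12.5% held TCAAGG at least once and 0.923% at 2 or more places, 14% held AGGTCA, 16.1% TGCTGA and 0.957% the inverted repeat. Among the other members, whose windows also matched RefSeq by symbol, AGGTCA stood at 1 place in the Nr1h4 window, at 2 places in 1 of the 2 Rxra windows and at 1 place in 1 of the 2 Nr5a2 windows, and TCAAGG at 1 place in 1 of the 2 Rxrb windows. A match describes letters in these windows and was not tested for binding. Bases further upstream were not searched, so the lack of a match says nothing of them. In hepatocytes the study detected FXR at the Shp (Nr0b2) promoter by chromatin immunoprecipitation.

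The libraries held 19551113 to 22053320 reads assigned to genes. Values are CPM, the reads of a gene relative to all assigned reads, scaled by the trimmed mean of M-values (TMM), and a gene is called changed at a Benjamini-Hochberg adjusted p under 0.05 with a fold change over 1.5 in edgeR's quasi-likelihood fit. Of all genes tested, 0.972% were called, 0.426% lower and 0.546% higher in Y67F-FXR livers. That balance turned over with library totals in place of TMM, which gave 68 genes lower and 52 higher against 53 and 68. The median log2 fold change of all tested genes was 0.01, and the median of its absolute value was 0.19. Hepatocyte markers summed to between 109750 and 128420 CPM per liver. Of the erythrocyte markers, Hba-a1, Hba-a2, Hbb-b1 and Hbb-b2 had 0 reads in every liver, while Alas2 was at 80.1 to 114 CPM. Reads that map to several places or genes were not counted, so these 0 values do not show that red cell RNA was absent. The labels number the 3 livers of a group and say nothing more of litter or day, so that p-values measure only the spread between these livers. In bulk liver RNA, fewer cells of a type and less RNA per cell cannot be told apart.

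None of the 8 members was called, beside 0.972% of all genes. Counts of 3 members (Nr0b2, Mafg and Rxrb) at an unadjusted p under 0.05, beside 13.4% of all genes, and of 2 members (Nr0b2 and Mafg) called by DESeq2, beside 3.44% of all genes, stand beside that 0. The 3 Y67F-FXR values lay below all 3 FXR-WT values for 2 members, against 10.5% of all genes, and above them for 1 member, Rxrb, against 10.2% of all genes. For the other 5 the groups overlapped. Fitted values were lower in Y67F-FXR livers for 5 members and higher for 3, with a median log2 fold change of -0.08.

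**Figure D1:**
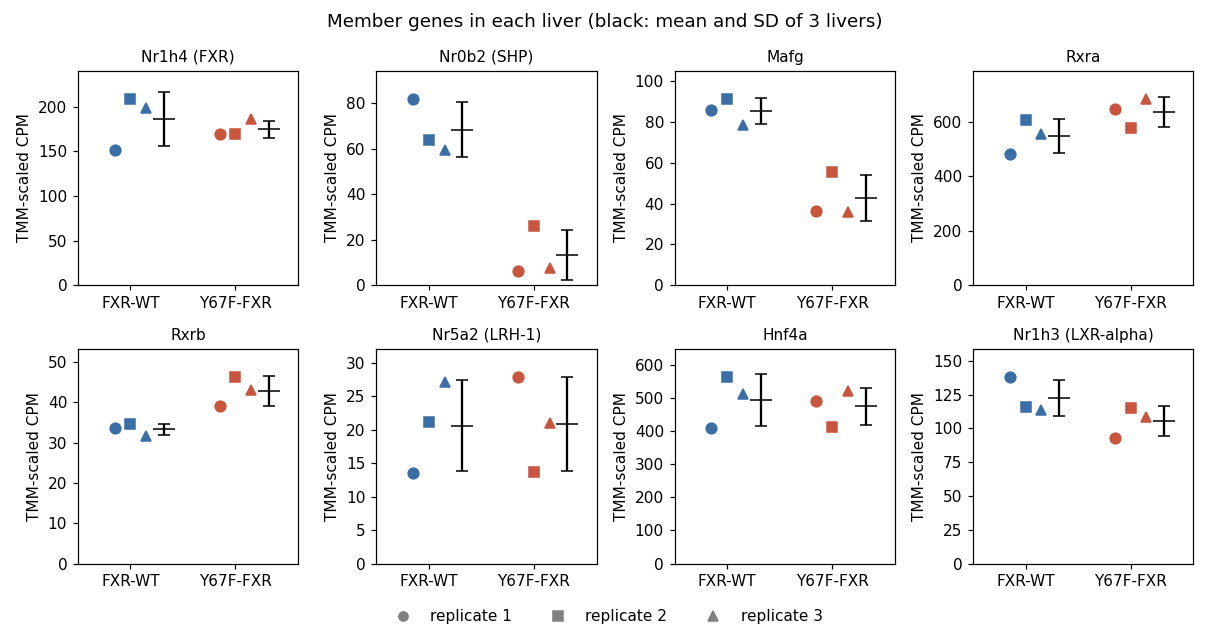
TMM-scaled CPM (linear axis from 0, a separate scale in each panel) of the 8 member genes in each of the 3 FXR-WT and 3 Y67F-FXR livers, with the mean and SD of the 3 livers in black and a marker shape for each replicate number. The Y67F-FXR points lie below all FXR-WT points for Nr0b2 and Mafg and above them for Rxrb, and the groups overlap in the other 5 panels.

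The FXR transcript itself had similar levels in both groups. Nr1h4 (mm9 chromosome 10, 88916979 to 88996367, minus strand, 11 exons) was at 152, 209 and 198 CPM in FXR-WT livers and at 169, 169 and 186 CPM in Y67F-FXR livers. All 3 Y67F-FXR values lay inside the FXR-WT range. The means were 186 ± 30.2 and 175 ± 9.84 CPM (SD, n = 3 each), the log2 fold change was -0.09 ± 0.146 (SE) and its 95% interval ran from -0.43 to 0.24 (edgeR, adjusted p = 0.861). Reads were summed over the whole gene, so the mouse transcript of cells without Cre, any transcript left from the floxed allele and transgene reads that align to the mouse gene are one value here. The counts therefore check neither the deletion nor the Y67F label.

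Nr0b2, which encodes SHP, had the lowest fitted fold change of the members. Its reads, over 2 exons and 1118 exon bases (mm9 chromosome 4, 133109305 to 133112451, plus strand), gave 81.9, 63.7 and 59.5 CPM in FXR-WT livers and 6.42, 25.9 and 7.59 CPM in Y67F-FXR livers, from raw counts of 1676, 1314 and 1378 against 132, 475 and 159. Replicates 1 and 3 of Y67F-FXR were close to each other, while replicate 2 was the highest of its group and still below every FXR-WT liver, the lowest of which was 2.30 times as high. Within groups, the highest liver was 1.38 times the lowest in FXR-WT and 4.04 times in Y67F-FXR. The means were 68.4 ± 11.9 and 13.3 ± 10.9 CPM (SD, n = 3 each), a coefficient of variation of 17.4% and 82.2%. The fitted level in Y67F-FXR livers was 19.4% of that in FXR-WT, and the log2 fold change was -2.37 ± 0.498 (SE, 95% interval -3.52 to -1.22). With an adjusted p of 0.0862 (edgeR's quasi-likelihood fit; unadjusted p = 0.00145) the difference did not pass the threshold, although only 15 of 12453 genes had a lower fitted fold change. Without Y67F-FXR replicate 2 the log2 fold change was -3.30 and the adjusted p 0.00265 in the same fit, which called 0.475% of all genes, and with any other liver left out Nr0b2 was not called.

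Mafg, which encodes the small MAF protein MAFG, had the next lowest fitted value. It lies at 120489667 to 120494861 on mm9 chromosome 11 (minus strand, 3 exons) and was at 85.8, 91.3 and 78.5 CPM in FXR-WT livers and 36.1, 55.5 and 35.9 CPM in Y67F-FXR livers. Here too replicate 2 was the highest Y67F-FXR liver, and the lowest FXR-WT liver was 1.41 times that value. Means were 85.2 ± 6.44 and 42.5 ± 11.3 CPM (SD, n = 3 each). Y67F-FXR livers were fitted at 49.9% of the FXR-WT level, a log2 fold change of -1.003 ± 0.189 (SE, 95% interval -1.44 to -0.57) with an adjusted p of 0.0607 in the edgeR fit (unadjusted p = 0.000726), which also missed the threshold. Leaving out Y67F-FXR replicate 2 gave -1.25 and an adjusted p of 0.0195 (edgeR), and leaving out any other liver gave no call.

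Liver by liver, Nr0b2 and Mafg had the same order within Y67F-FXR only in that replicate 2 was highest. Relative to the mean of the 6 livers, log2 CPM of Nr0b2 in Y67F-FXR replicates 1, 2 and 3 was -2.06, -0.07 and -1.82, and that of Mafg was -0.72, -0.10 and -0.73. Of the other measures taken per liver, its 10 Kupffer cell and leukocyte markers summed to 311 CPM, against 141 and 218 CPM in the other Y67F-FXR livers and 178 to 251 CPM in FXR-WT. Its 6 stellate cell markers summed to 136 CPM, against 189 to 203 CPM in the other 5 livers. Of these, Dcn (90.3 CPM), Reln (27.4 CPM) and Lrat (5.78 CPM) were at their lowest of the 6 livers there, while Des (7.86 CPM) and Acta2 (1.58 CPM) were the highest of the Y67F-FXR group. Between the groups, 5 of the 6 stellate markers had lower fitted values in Y67F-FXR. An unadjusted p under 0.05 (edgeR) was found for 3, beside 13.4% of all genes, with none called. The groups overlapped for Dcn, Reln, Des and Acta2, and did not overlap for Lrat and Col1a1. Dcn, the most abundant, was at 123, 133 and 134 CPM in FXR-WT and 140, 90.3 and 134 CPM in Y67F-FXR livers. Lrat, which esterifies retinol, was at 18.7, 13.1 and 17.9 CPM in FXR-WT and 8.51, 5.78 and 8.11 CPM in Y67F-FXR livers. The 2491 genes of up to 1598 exon bases, the shortest of those tested, were higher in replicate 2, with a median deviation of 0.22 on the log2 scale, than in Y67F-FXR replicates 1 (-0.20) and 3 (-0.01), while FXR-WT replicates 1, 2 and 3 were at 0.20, -0.02 and -0.18. Nr0b2 is among them. With the trend over length taken out of each liver, Nr0b2 stood at 73.0, 64.3 and 65.7 CPM in FXR-WT and 7.48, 22.7 and 7.77 CPM in Y67F-FXR, and both Nr0b2 and Mafg were called, with adjusted p of 0.0216 and 0.0196 in the edgeR fit with length offsets, which called 1.97% of all genes. The part of cell makeup in the replicate 2 values and in the group differences was not tested.

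**Figure D2:**
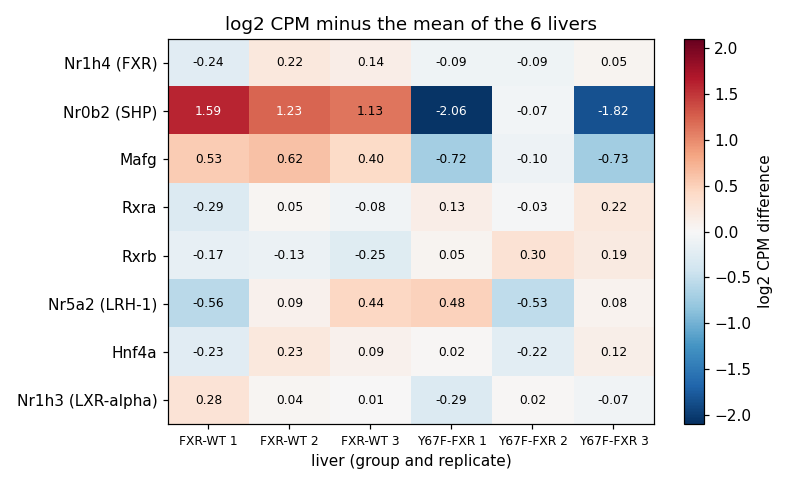
Each cell is the log2 CPM of a member (rows) in a liver (columns, group and replicate) minus the member's mean over the 6 livers, with red for higher and blue for lower. Nr0b2 runs from 1.59 in FXR-WT replicate 1 to -2.06 in Y67F-FXR replicate 1, and the Y67F-FXR replicate 2 cells of Nr0b2 and Mafg are at -0.07 and -0.10.

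Set against the FXR transcript of the same liver, the SHP and MAFG transcripts gave the following ratios. Per 100 CPM of Nr1h4, Nr0b2 stood at 53.9, 30.5 and 30.0 CPM in FXR-WT and 3.79, 15.3 and 4.08 CPM in Y67F-FXR. Mafg stood at 56.4, 43.7 and 39.6 against 21.4, 32.8 and 19.3 CPM. Neither ratio overlapped between groups, which follows from the separate values above, since no FXR-WT liver had over 1.24 times the Nr1h4 level of a Y67F-FXR liver. The log2 ratio to Nr1h4 differed by -2.55 for Nr0b2 and by -0.95 for Mafg, each with p = 0.10 in an exact two-sided permutation test, the smallest value that 3 against 3 livers can give.

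The retinoid X receptors were examined as the dimer partners of FXR and LXRα. Rxra (mm9 chromosome 2, 27532721 to 27618839, plus strand, 10 exons), the main hepatic form, was at 482, 607 and 556 CPM in FXR-WT and at 645, 576 and 684 CPM in Y67F-FXR livers. The groups overlapped, since Y67F-FXR replicate 2 lay below the highest FXR-WT liver. The log2 fold change was 0.21 ± 0.136 (SE, 95% interval -0.10 to 0.53; edgeR, adjusted p = 0.589). Rxrb (mm9 chromosome 17, 34168757 to 34175348, plus strand, 11 exons) was at 33.5, 34.5 and 31.7 CPM against 39.0, 46.3 and 43.1 CPM. Every Y67F-FXR liver was above every FXR-WT liver, the closest pair differing 1.13-fold. Its log2 fold change was 0.36 ± 0.118 (SE, 95% interval 0.09 to 0.64), which with an adjusted p of 0.229 in the edgeR fit (unadjusted p = 0.0156) did not pass the threshold and is below the 1.5-fold a call needs.

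The receptors on which SHP acts, and LXRα, overlapped between groups. Nr5a2 (mm9 chromosome 1, 138740161 to 138857025, minus strand, 10 exons) was the most variable member within FXR-WT, at 13.5, 21.2 and 27.1 CPM, and was at 27.9, 13.7 and 21.1 CPM in Y67F-FXR. Its means were nearly equal, with a log2 fold change of 0.02 ± 0.309 (SE; edgeR, adjusted p = 0.991) and an interval of -0.69 to 0.73, so that a difference of 1.5-fold in either direction lay within it. Hnf4a (mm9 chromosome 2, 163372924 to 163398643, plus strand, 10 exons), the hepatocyte identity factor, was at 409, 563 and 512 CPM against 489, 412 and 522 CPM. All 3 of its Y67F-FXR values lay inside the FXR-WT range, with a log2 fold change of -0.06 ± 0.159 (SE, 95% interval -0.43 to 0.31; edgeR, adjusted p = 0.925). Nr1h3 (mm9 chromosome 2, 91024218 to 91035273, minus strand, 10 exons) was at 138, 116 and 114 CPM in FXR-WT and at 92.9, 115 and 108 CPM in Y67F-FXR. Y67F-FXR replicate 2 exceeded FXR-WT replicate 3 by a small margin, while the other Y67F-FXR livers lay below the FXR-WT range. The log2 fold change of Nr1h3 was -0.22 ± 0.136 (SE, 95% interval -0.53 to 0.10; edgeR, adjusted p = 0.573). The exons of the 8 members share no bases with another annotated gene.

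**Figure D3:**
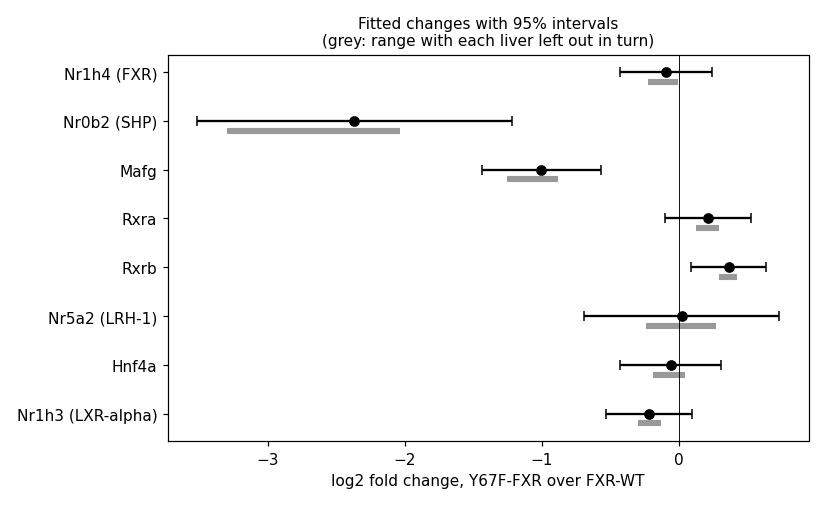
Points are the fitted log2 fold change (Y67F-FXR over FXR-WT) of each member with its 95% interval, and grey bars the range of the value when each of the 6 livers is left out in turn. Nr0b2 at -2.37 and Mafg at -1.003 have intervals below 0, Rxrb at 0.36 has an interval above 0, and the other 5 intervals span 0.

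Levels can be compared between genes only per length, as CPM per kilobase of exon. In FXR-WT livers Hnf4a was highest, at 114 ± 18.0 CPM per kilobase, followed by Rxra at 104 ± 12.0 (SD, n = 3). These neighbours overlapped. Nr1h4 at 79.7 ± 12.9, Nr0b2 at 61.2 ± 10.7, Nr1h3 at 60.2 ± 6.56 and Mafg at 52.1 ± 3.94 CPM per kilobase formed a run in which each overlapped the next. Rxrb at 12.0 ± 0.515 and Nr5a2 at 5.34 ± 1.77 CPM per kilobase stood below and apart from each other. In Y67F-FXR livers Nr0b2 was at 11.9 ± 9.78 CPM per kilobase, which was rank 8, 6 and 7 of the 8 in replicates 1, 2 and 3, and Mafg was at 26.0 ± 6.90. Rxra was there the highest, at 121 ± 10.5 against 109 ± 13.0 CPM per kilobase for Hnf4a. The ratio of Rxra to Hnf4a, chosen after the values were seen, was 0.974, 0.892 and 0.898 in FXR-WT and 1.09, 1.16 and 1.09 in Y67F-FXR livers.

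**Figure D4:**
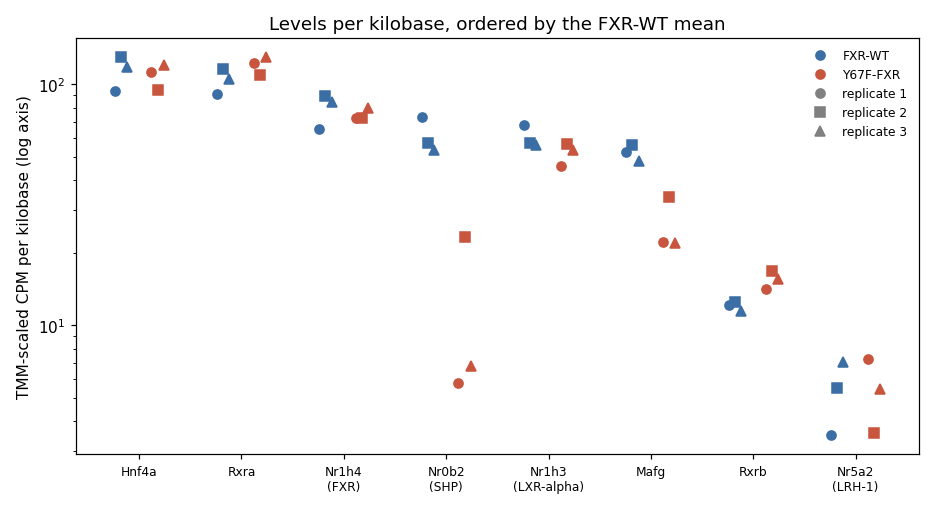
TMM-scaled CPM per kilobase of exon (log axis) of each member in each liver, in the order of the FXR-WT mean, with colour for the group and marker shape for the replicate number. Hnf4a and Rxra are highest and Nr5a2 lowest in FXR-WT, and the Nr0b2 mean is 61.2 CPM per kilobase in FXR-WT and 11.9 in Y67F-FXR livers.

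For each member, the genes with the most similar course over the 6 livers were taken from the 11513 tested genes that averaged 1 CPM or more, by the root mean square difference of centred log2 CPM. The measure is a description over 6 livers that share the group difference. Nearest to Nr0b2 were Gdf15, a stress-induced cytokine, at 0.435 (log2 units), the gene model Gm6484 at 0.454 and Cyp2c70, which makes mouse muricholic acids, at 0.495, against a spread of Nr0b2 itself of 1.47. For Mafg they were Filip1l at 0.135, Abcg1, an LXR-induced sterol exporter, at 0.158 and Tubb2a, a tubulin, at 0.170, against a spread of 0.559. Of these, Gdf15 (log2 fold change -2.27, edgeR adjusted p = 0.0381) and Cyp2c70 (-2.75, edgeR adjusted p = 0.00483) were called lower, against 0.426% of all genes. Both were picked for a course like that of Nr0b2 in the same livers, so their calls are no independent evidence. For the members whose groups overlapped, or differed less, the nearest genes were Fmo1, Gyg and Zbtb46 for Nr1h4, Pskh1, Aldh2 and Lims2 for Rxra, and Gaa, Ptpmt1 and Smarcd2 for Rxrb. They were Matr3, Zfp943 and Phf12 for Nr5a2, Rnf10, Tmem5 and BC029722 for Hnf4a, and Pnp, Dhrs11 and Eef1g for Nr1h3, with the nearest of each set at 0.0195 to 0.0379.

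The genes around the members were read from 8 lists by role, 84 genes in all, of which 80 were tested, 6 were called lower and 3 higher, against 0.426% and 0.546% of all genes. Some listed genes are ones the study itself shows from these livers, so the counts are no independent evidence of direction. Among hepatic genes that FXR induces, 3 of the 19 tested fell (against 0.426% of all genes), 14 had lower fitted values and the list median was -0.23 on the log2 scale, against 0.01 over all genes. Kdm1a, a histone demethylase that represses with SHP and so also stands in the corepressor list, was at 45.0, 44.4 and 41.9 CPM in FXR-WT and 12.2, 13.5 and 13.1 CPM in Y67F-FXR (log2 fold change -1.76, edgeR adjusted p = 0.00148). Osgin1, an oxidative stress response gene, fell by 1.92 on the log2 scale (edgeR adjusted p = 0.0278), and Scarb1, the HDL receptor, fell by 0.66 (edgeR adjusted p = 0.0429).

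All 5 bile acid genes that SHP or MAFG represses had higher fitted values and groups that did not overlap, against 10.2% of all genes with every Y67F-FXR value higher. Their median log2 fold change was 0.90, and 2 of them passed, against 0.546% of all genes called higher. Cyp7a1, the rate-limiting enzyme of bile acid synthesis, rose from 94.8, 119 and 99.1 CPM to 353, 232 and 249 CPM (log2 fold change 1.41, edgeR adjusted p = 0.0210). Cyp8b1, the sterol 12-hydroxylase that sets the share of cholic acid, rose from 452, 810 and 620 CPM to 1545, 1827 and 1576 CPM (1.39, edgeR adjusted p = 0.0333). The nearest to these, Cyp27a1 of the alternative pathway, had a log2 fold change of 0.90 and did not pass (edgeR adjusted p = 0.0721).

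Among partners of SHP and MAFG, 1 gene of each list passed. Of 10 corepressors that act with SHP, 1 fell, Kdm1a, against 0.426% of all genes, and the median was -0.01. Sin3a and Hdac3, a scaffold and a deacetylase of corepressor complexes, were next by p at 0.26 each and did not pass (edgeR adjusted p = 0.369 and 0.445). Of 7 small MAF proteins and their CNC-bZIP partners tested, 1 fell, against 0.426% of all genes. An unadjusted p under 0.05 (edgeR) was found for 5, against 13.4% of all genes. Groups did not overlap for 2 lower and 2 higher genes, against 10.5% and 10.2%. The called gene was Nfe2, known for its part in megakaryocytes and red cell precursors. It was at 5.77, 2.42 and 2.55 CPM in FXR-WT and 0.535, 0.382 and 0.668 CPM in Y67F-FXR livers (log2 fold change -2.73, edgeR adjusted p = 0.0379). The summed erythrocyte markers, which rest on Alas2 alone, were 80.1 to 114 CPM per liver. Of the 10 Kupffer cell and leukocyte markers 6 had lower fitted values, and the neutrophil genes S100a8 (1.27, 0.970 and 0.864 CPM against 0.243, 0.164 and 0.0477) and S100a9 (log2 fold change -1.95) were lower in all 3 Y67F-FXR livers, without being called. The part of either cell type in Nfe2 was not tested. Its relatives Maff (-0.92, edgeR adjusted p = 0.0635) and Nfe2l1 (0.44, edgeR adjusted p = 0.242) did not pass, and the list median was 0.08.

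Around the RXRs no gene was called: 0 of 12 other RXR and heterodimer partner genes (median 0.13) and 0 of 12 coactivators (median 0.07) passed the edgeR test. Of all genes 0.972% were called, so that lists of this size say little by having none. The partners with the smallest p were Rarb (-0.74), Ppara (0.58) and Ppard (0.31), and the coactivators were Ppargc1a (0.72), Carm1 (-0.38) and Prmt1 (-0.25). Of 8 LXR targets, 2 fell (against 0.426% of all genes) and 1 rose (against 0.546%), with a median of -0.66 against 0.01 over all genes. Abcg5 went from 235, 178 and 177 CPM to 89.1, 82.0 and 81.2 CPM and Abcg8 from 247, 189 and 194 CPM to 98.0, 78.8 and 94.0 CPM. Their products pair to form the exporter of sterols into bile, and both had a log2 fold change of -1.22 (edgeR adjusted p = 0.0175 and 0.0176). Lpcat3, a phospholipid remodelling enzyme, rose by 0.68 on the log2 scale (edgeR adjusted p = 0.0429). None of 8 HNF4A targets passed in the edgeR fit, beside 0.972% of all genes, with a median of 0.11. Ttr, the thyroxine carrier transthyretin, was at 0.19 and Mttp, which loads lipid onto lipoproteins, at 0.18 on the log2 scale (edgeR adjusted p = 0.696 for each).

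**Figure D5:**
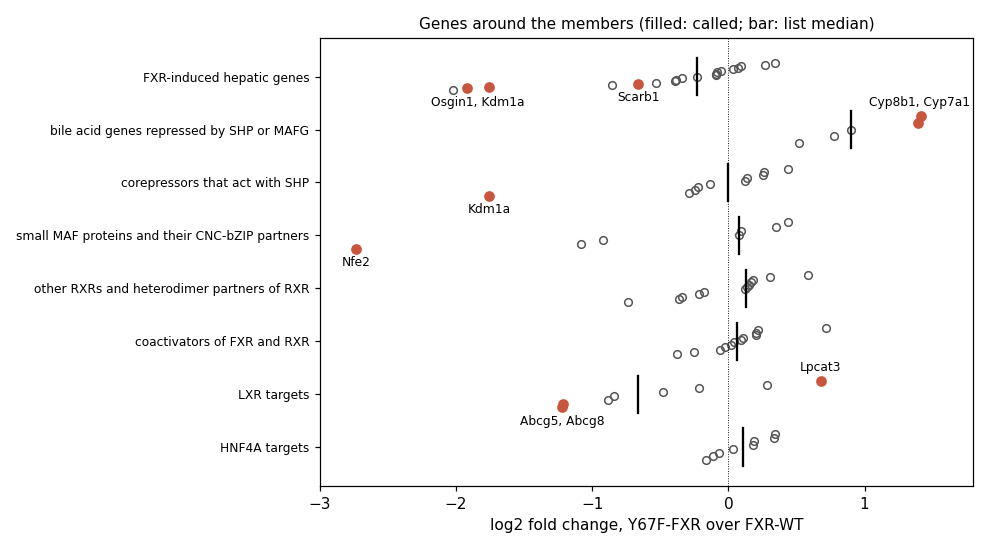
Log2 fold change (Y67F-FXR over FXR-WT, horizontal axis) of each tested gene in the 8 lists, 1 row a list, with called genes filled and named and the list median as a bar. Kdm1a appears in 2 lists, the 5 repressed bile acid genes all lie above 0, and Lpcat3 is the other called gene above 0.

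Of the 9 called genes in the lists, Kdm1a kept its call with each of the 6 livers left out in turn (highest edgeR adjusted p 0.0230). The other 8 lost theirs both without FXR-WT replicate 3 and without Y67F-FXR replicate 3, with a highest adjusted p of 0.0817 (Abcg5, Abcg8) to 0.221 (Scarb1) in the edgeR fits. Those fits called 9 and 26 genes in all, against 121 with every liver, and over the left-out fits the log2 fold change kept its sign, running from -2.95 to -2.22 for Nfe2, -2.11 to -1.70 for Osgin1, -0.70 to -0.62 for Scarb1, 1.21 to 1.52 for Cyp7a1, 1.204 to 1.62 for Cyp8b1, -1.29 to -1.08 for Abcg5, -1.29 to -1.09 for Abcg8 and 0.61 to 0.72 for Lpcat3. Scarb1 and Lpcat3 lost theirs in every fit with a liver left out (and with length offsets and a replicate block together, Lpcat3 also with library totals), Osgin1 and Cyp7a1 without FXR-WT replicate 1, Cyp7a1 and Nfe2 without FXR-WT replicate 2, Osgin1, Cyp8b1 and Nfe2 without Y67F-FXR replicate 1, and Cyp8b1 and Nfe2 without Y67F-FXR replicate 2.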

How the data were processed

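Liver RNA from 3 FXR-WT and 3 Y67F-FXR mice was sequenced as paired-end 100 bp reads on an Illumina HiSeq2000. The authors deposited raw counts per gene, made per the file headers with featureCounts 1.4.6-p4 on mm9 gene models, without strand, with the reads of a pair counted singly and reads that map to several places or genes not counted. The submitters' processing notes also name bcl2fastq 2.17.1.14, Trimmomatic 0.36, FastQC 0.11.5, STAR 2.5.3a and edgeR. A deposited table of the authors' comparison (log2 fold change, mean log2 CPM, p and false discovery rate) was not used.

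Tests were run on the counts with edgeR 4.0.16 under R 4.3.3 (filterByExpr, TMM factors, glmQLFit and glmQLFTest on group alone, two-sided), with Benjamini-Hochberg adjustment over all 12453 genes tested. CPM used TMM-scaled library sizes, and log2 CPM a prior count of 2. Standard errors and intervals came from the F statistic. The scripts were tested on simulated data. Alternatives were other scalings (DESeq2 size factors, upper quartile, library totals), DESeq2 1.42.0, no filter or a stricter one, no fold minimum, a test against it, a replicate block, a prior count of 0.5, length offsets (loess, span 0.3) and each liver left out. Totals of 19551113 to 22053320 reads and 3 livers a group set the precision.

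Named genes were the 8 members, called list genes, the 3 list genes with the smallest p and the 3 genes nearest to each member, with 1 list gene not reported here. The members and lists were chosen with earlier results of these data known. Promoter windows came from RefSeq (GRCm38.p6), gene positions from the count files (mm9). Figures were drawn with matplotlib 3.10.9 in Python 3.11.15.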

Additional observations from a re-analysis of the deposited data

How the results depend on the processing

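Of 136 alternative values of the 8 members, 118 kept their direction and side of the threshold, 11 passed it where the reported value had not, none was lost and 7 turned sign. Nr0b2 was called by DESeq2 (-2.35), without the filter (-2.36), with length offsets (-2.43) and with length offsets and a replicate block (-2.62). With each liver left out it ranged from -3.30 to -2.03 (adjusted p 0.00265 to 0.302, edgeR), and over all other alternatives its adjusted p ran from 3.8e-05 to 0.349. Mafg was called with library totals (-1.08), DESeq2 (-0.994), no filter (-0.998), length offsets (-0.998) and length offsets with the block (-1.02). With each liver left out it ranged from -1.25 to -0.88 (adjusted p 0.0195 to 0.279), and over all other alternatives its adjusted p ran from 0.000453 to 0.663. The sign changes were in Nr5a2 (0.02 as reported) and Hnf4a (-0.06 as reported). Nr5a2 turned with library totals (-0.044), length offsets (-0.00028) and length offsets with the block (-4.2e-05). It also turned without FXR-WT replicate 1 (-0.22) and without Y67F-FXR replicate 1 (-0.24), both beyond the median absolute value of all genes, 0.19. With a liver left out Nr5a2 ranged from -0.24 to 0.27 and Hnf4a from -0.19 to 0.043. The cause was not tested. Genes called lower and higher numbered 215 and 214 in DESeq2, 124 and 121 with length offsets, 7 and 1 in the test against the fold threshold, and 6 and 2 with the block, against 53 and 68 as reported. The unfiltered fit called 81 lower and 86 higher. With a liver left out, 7 to 33 genes were called lower and 2 to 35 higher. Of the list genes, DESeq2 called 9 lower and 5 higher (6 and 3 as reported), the test against the threshold and the block each called 1 lower and 0 higher, and leaving out a liver left 1 to 5 lower and 0 to 1 higher. The test against the threshold and the block each ended the calls of the 8 called list genes other than Kdm1a. The log2 ratio to Nr1h4 ranged from -3.20 to -2.20 for Nr0b2 and from -1.18 to -0.80 for Mafg with a liver left out, with no p below 0.10 possible.

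Replicate numbers are shared between groups, but same-numbered livers did not deviate together (correlations -0.52, -0.08 and 0.12), so the numbers were not taken as pairs. With the replicate block alone, Nr0b2 was at -2.64 (adjusted p = 0.149, edgeR) and Mafg at -1.03 (0.137). FXR-WT replicate 1 correlated best with Y67F-FXR replicate 2 (0.54) and FXR-WT replicate 3 with Y67F-FXR replicate 1 (0.58). These matches come from the data alone. The livers matched at 0.54 also had similar median deviations of the shortest genes (0.20 and 0.22), as did those matched at 0.58 (-0.18 and -0.20). The part of gene length in these correlations was not tested.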
